A study of Homo sapiens with 6 samples.

Results

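The interleukin-1 (IL-1) family ligands and receptors were examined as a group of 10 genes, out of 67140 gene identifiers in the deposited table, in KYSE150 cells with and without a short hairpin RNA against the long noncoding RNA AC007128.1. The group held the ligands IL1A, IL1B, IL18, IL33 and IL36G, the receptor antagonist IL1RN, and the receptor genes IL1R1, IL1R2, IL1RAP and IL1RL1. These genes were chosen by gene family with their differences between shAC007128.1 and shCtrl in this data set already known, so their values in that comparison are given as a description, without a test. The lists of related genes further below were also chosen with earlier results of these data known. Their counts of calls and p-values are likewise descriptive. KYSE150 is a human esophageal squamous cell carcinoma (ESCC) line. Per the study's methods it was transduced with lentivirus and selected with puromycin, and it was grown in RPMI 1640 with fetal bovine serum. There were 2 groups of 3 poly-A RNA-seq libraries: shCtrl cells, which carry a control hairpin, and shAC007128.1 cells, which carry 1 hairpin against AC007128.1. Sample names gave the groups, because the treatment note names shAC007128.1 for all 6 samples. No label says whether the 3 replicates came from separate cultures, so the spread between them, and every p-value below, may be technical.

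IL-1 family cytokines are alarm signals of epithelia and myeloid cells. IL1A and IL1B both bind the receptor IL1R1, which then recruits the accessory chain IL1RAP and passes the signal through MYD88 and IRAK kinases to NF-kappaB and MAP kinases. IL1RN occupies IL1R1 without signalling, and IL1R2 is a decoy receptor that binds ligand but has no signalling domain. IL33 acts through IL1RL1 (also called ST2) with IL1RAP, IL36G acts through IL1RL2 with IL1RAP, and IL18 has its own receptor pair, IL18R1 and IL18RAP. Squamous epithelial cells are known to store IL1A, IL18 and IL33 and to release them on damage.

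Libraries held 55764405 to 78610457 estimated counts each, and 19254 genes had enough counts to be tested. AC007128.1 itself (ENSG00000229970, chromosome 7, 8262264 to 8344516) had 69, 33 and 53 counts in shCtrl and 18, 37 and 15 in shAC007128.1. The groups overlapped, with a log2 fold change of -0.77 (SE 0.51, edgeR adjusted p = 0.271), and some of its exonic bases are shared with ICA1, ICA1-AS1 and another noncoding gene, so the labelled knockdown was not resolved at this depth. The paper itself reports, by qPCR, a lower AC007128.1 level in ESCC cells that carry its hairpin. A gene was called where its adjusted p reached 0.05 and its level differed by 1 or more on the log2 scale. Genes called lower made up 10.1% of the genes tested, and genes called higher 5.57%. All 13 squamous epithelium markers had counts in every sample. Their summed level was 2930 to 2950 CPM (counts scaled to a common library size) in shCtrl and 4210 to 4880 in shAC007128.1. Of these markers 4 were called higher (SOX2, KRT14, KRT6A and PERP) and 1 lower (DSG3, 203 ± 5.76 and 95.3 ± 9.19 CPM). SOX2 was scarce in shCtrl, at 0.434 ± 0.137 CPM. Myeloid markers, which matter because myeloid cells are a main source of IL1B, summed to 62.7 to 71.9 CPM in shCtrl and 17.8 to 27.6 in shAC007128.1, most of it CD68 (63.8 ± 4.47 and 17.5 ± 5.27 CPM), a lysosomal protein gene that was called lower and shares 1765 exonic bases with a noncoding gene. Of the other 7 myeloid markers, CSF1R overlapped between groups at 3.51 ± 0.401 and 3.45 ± 0.567 CPM, CD14 and ITGAM had 0 to 35 counts per sample and were not called, PTPRC, LYZ and FCGR3A had 0 to 9, and TYROBP had 0. Lymphoid markers stayed under 1 CPM in sum. In fibroblast markers the sum was 15.3 to 16.2 CPM in shCtrl and 21.3 to 23.9 in shAC007128.1, and in endothelial markers 2.34 to 3.23 and 0.587 to 2.02. The part of these marker differences in the results below was not tested.

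The hairpin and the promoters of IL1A and IL1B, the most abundant members and both lower in shAC007128.1, and of IL1RAP, whose groups overlapped, are shown to place the comparison in sequence. The 19-base target of the shAC007128.1 hairpin is given first, then its antisense strand with bases 2 to 8, which pair as a seed, in capitals. Promoter stretches are the bases before the outermost annotated start site, from RefSeq on GRCh38.p14, written 5′ to 3′ on the strand of the gene with motif matches in capitals. They are IL1A at chr2:112784494-112784743 (minus strand), IL1B at chr2:112836817-112837029 (minus strand) and IL1RAP at chr3:190513835-190514050 (plus strand).
shAC007128.1 target: ccacaagtcctggcacatt
antisense strand: aATGTGCCaggacttgtgg
IL1A promoter: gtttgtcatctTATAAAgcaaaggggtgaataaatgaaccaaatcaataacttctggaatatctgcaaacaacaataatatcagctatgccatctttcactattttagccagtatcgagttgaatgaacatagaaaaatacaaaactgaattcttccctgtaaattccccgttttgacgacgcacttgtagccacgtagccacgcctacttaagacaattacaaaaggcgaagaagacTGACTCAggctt
IL1B promoter: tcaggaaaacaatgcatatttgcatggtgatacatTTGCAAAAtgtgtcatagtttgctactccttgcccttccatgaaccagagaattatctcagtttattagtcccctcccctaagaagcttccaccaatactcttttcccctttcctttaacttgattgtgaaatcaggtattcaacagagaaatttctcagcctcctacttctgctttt
IL1RAP promoter: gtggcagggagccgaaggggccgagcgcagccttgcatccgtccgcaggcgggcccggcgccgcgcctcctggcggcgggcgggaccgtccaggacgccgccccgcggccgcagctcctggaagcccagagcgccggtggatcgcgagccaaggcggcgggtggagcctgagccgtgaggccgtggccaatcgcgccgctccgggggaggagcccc

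The whole 19-base target was found in 0 of 19701 canonical protein-coding transcripts searched. AC007128.1 is noncoding and was not among them, so the match of the hairpin to its own target was not tested. The 7-base match to the seed, GGCACAT, stood in 16.3% of those transcripts and in 1 of the 10 members, IL1RL1, at 1 place. For the promoters, 4 motifs were searched on both strands in the 250 bases before each start: the AP-1 site TGANTCA, present in 6.57% of all 35116 windows, the kappaB site (9.96%), the TATA box TATAAA (10.7%) and the C/EBP site TTGCNNAA (9.05%). RefSeq windows were matched for 9 of the 10 members. In the IL1A stretch TATAAA stands 239 bases and TGACTCA 12 bases before the start, and in the IL1B stretch TTGCAAAA stands 215 bases before the RefSeq start at 112836779, which lies inside the outermost annotated start. The IL1RAP stretch held no match to the 4 motifs, and its window had a GC content of 74.8%, against 37.6% for IL1A. Among the 9 members the AP-1 site was found in IL1A, IL1RN and IL1RL1, and the kappaB site in IL1R2. The TATA box was found in IL1A, IL1RN, IL1R1, IL1R2 and IL1RL1, and the C/EBP site in IL1B. Several members have more than 1 window, so the shares above, which count windows, cannot be set against members. Of the 18 windows of these members, 4 held the AP-1 site, 1 the kappaB site, 5 the TATA box and 1 the C/EBP site. Each match describes letters in these windows, not a bound site.

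The ligands that signal through IL1R1 were the most abundant members in shCtrl cells and stood several-fold lower in shAC007128.1 cells. IL1A (ENSG00000115008, chromosome 2, 112773925 to 112784493, minus strand), a cytokine that is active as a precursor and is held in epithelial cells, measured 297, 294 and 290 CPM in shCtrl and 35.1, 37.9 and 46.6 CPM in shAC007128.1. Every shAC007128.1 sample lay far below every shCtrl sample, and the means were 294 ± 3.39 and 39.9 ± 5.97 CPM (SD, n = 3 each). The log2 fold change was -2.88 (SE 0.12), a level 13.6% of control. IL1B (ENSG00000125538, chromosome 2, 112829751 to 112836816, minus strand), the form that needs cleavage by caspase-1 to become active, measured 210, 210 and 206 CPM in shCtrl and 32.4, 33.6 and 36.1 CPM in shAC007128.1. Its groups were as far apart, at 209 ± 2.13 and 34.0 ± 1.9 CPM, with a log2 fold change of -2.62 (SE 0.07) and a level 16.3% of control. In bulk RNA, fewer cells that make a transcript and less of it per cell cannot be told apart.

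**Figure D1:**
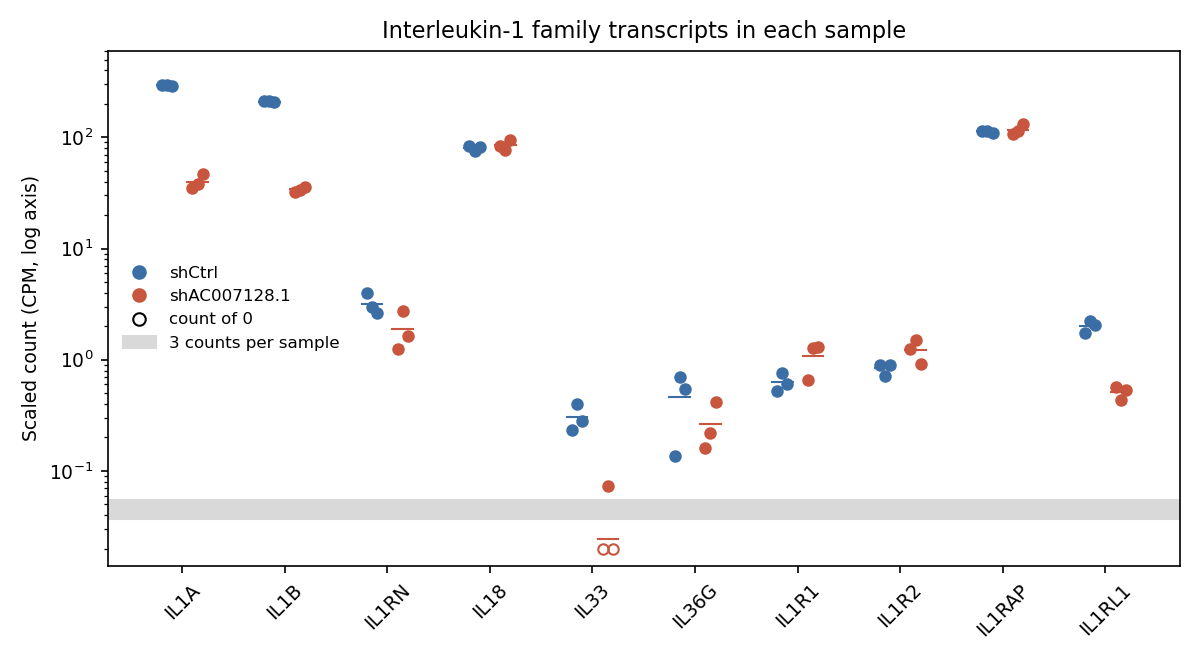
Scaled count (CPM, log axis) of each of the 10 members in every sample, with shCtrl and shAC007128.1 samples as points, group means as short lines, open circles for a count of 0, and the level of 3 counts as a grey band. IL1A and IL1B drop from above 200 to under 50 CPM in shAC007128.1, IL18 and IL1RAP stay near 80 and 115 CPM, and the other members lie at 4.02 CPM or less, with IL33 at or near 0 in shAC007128.1.

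IL18, an interferon-gamma inducing cytokine that is also cleaved by caspase-1, overlapped between the groups, unlike IL1A and IL1B. Its level (ENSG00000150782, chromosome 11, 112143253 to 112164096) was 82.9, 75.3 and 81.2 CPM in shCtrl and 83.3, 76.6 and 93.7 CPM in shAC007128.1. Groups overlapped at 79.8 ± 4.0 and 84.5 ± 8.64 CPM, and the log2 fold change was 0.08 (SE 0.10), a value that ran from -0.01 to 0.15 over the alternative fits. IL33 (ENSG00000137033, chromosome 9, 6215786 to 6257983), a nuclear alarmin of barrier cells, was scarce, with 17, 32 and 19 counts in shCtrl and 0, 4 and 0 in shAC007128.1. All 3 shAC007128.1 samples were below all 3 shCtrl samples, at 0.0243 ± 0.042 against 0.303 ± 0.0852 CPM. IL33 passed the filter on low counts only through its shCtrl samples, its log2 fold change of -3.57 (SE 1.10) depends on how zeros are treated, and its call was lost in 5 of the 6 fits that left out 1 sample.

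IL36G (ENSG00000136688, chromosome 2, 112973203 to 112985658), an IL-36 agonist of squamous epithelia, had 10, 56 and 37 counts in shCtrl and 9, 12 and 24 in shAC007128.1. The spread within shCtrl was wider than the gap between groups (0.459 ± 0.289 and 0.264 ± 0.132 CPM, log2 fold change -0.80, SE 0.68). IL1RN (ENSG00000136689, chromosome 2, 113099315 to 113134016), the antagonist of IL1R1, measured 4.02, 2.97 and 2.62 CPM in shCtrl and 1.25, 2.75 and 1.63 CPM in shAC007128.1. Here shAC007128.1 replicate 2 lay inside the shCtrl range, and the means were 3.20 ± 0.726 and 1.88 ± 0.781 CPM, with a log2 fold change of -0.77 (SE 0.33). Without that replicate the IL1RN value was -1.15 and met the limits for a call, which held in only 1 of 14 alternative fits. Without shAC007128.1 replicate 1 it was -0.55.

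The make-up of the ligand pool therefore differed between the groups. On a per-length scale (CPM per kb of exon), the 5 ligands with IL1RN summed to 247 ± 2.84 in shCtrl and 64.2 ± 6.56 in shAC007128.1. IL1A and IL1B gave 86.8, 87.7 and 86.8% of that sum in the shCtrl samples and 46.5, 49.7 and 48.9% in the shAC007128.1 samples. IL18 took 12.4% of it on average in shCtrl and 50.6% in shAC007128.1, so it moved from a minor to the leading ligand transcript while its own level overlapped between groups. IL1A was 2.09 to 2.11 times IL1B per length in shCtrl, and 1.62, 1.68 and 1.92 times in shAC007128.1. The sum of IL1A and IL1B over the antagonist IL1RN was 202, 271 and 302 in shCtrl and 84.4, 40.7 and 80.1 in shAC007128.1. All of these ratios separated the groups without overlap, and they are built from the values that the members were selected with. The size of each share and ratio depends on the exon length used. Merged exons came to 2017 bases for IL1A, 3009 for IL1B and 2605 for IL18. Their canonical transcripts have 2017, 1507 and 1115 bases, so the order of IL1A and IL1B per length is not settled by these values.

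**Figure D2:**
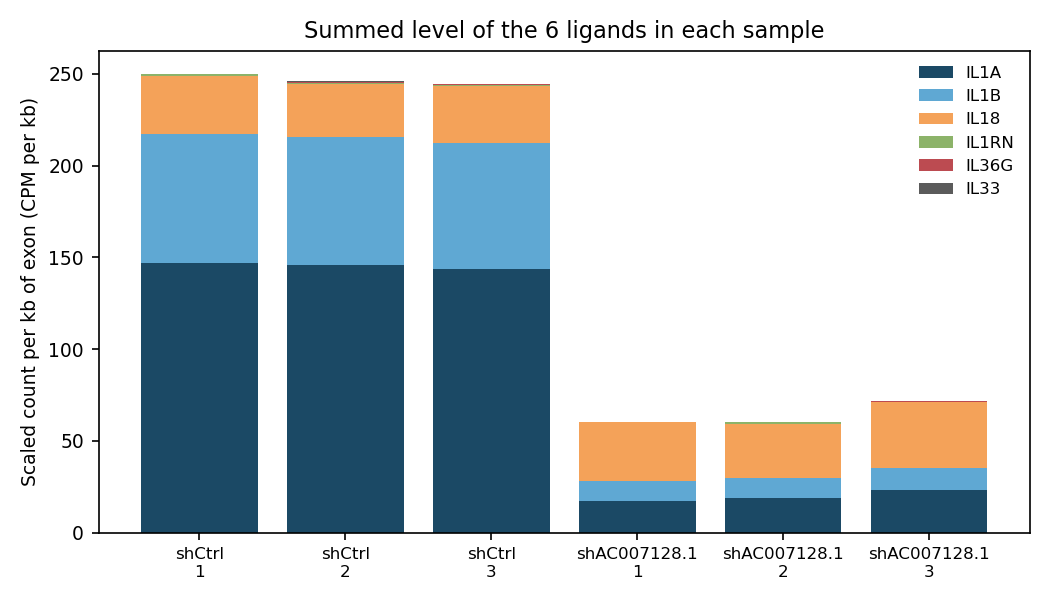
Level per length (CPM per kb of merged exon) of the 5 ligands and IL1RN, stacked in 1 bar for each of the 6 samples. IL1A and IL1B make up 87.1% of the ligand level in shCtrl on average and 48.3% in shAC007128.1, while the IL18 level stays at about the same height.

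The receptor genes showed a different picture: the shared chain overlapped between the groups, the IL-1 receptors were low in both groups, and the IL33 receptor was lower in shAC007128.1. IL1RAP (ENSG00000196083, chromosome 3, 190514051 to 190659750), the accessory chain used by IL1R1, IL1RL1 and IL1RL2, measured 115, 115 and 110 CPM in shCtrl and 106, 113 and 132 CPM in shAC007128.1. The groups overlapped, with a log2 fold change of 0.04 (SE 0.09) that ran from -0.06 to 0.11 over the alternative fits. IL1RL1 (ENSG00000115602, chromosome 2, 102311502 to 102352037), the receptor for IL33, measured 1.75, 2.23 and 2.06 CPM in shCtrl and 0.569, 0.437 and 0.533 CPM in shAC007128.1. Its groups did not overlap (2.01 ± 0.242 and 0.513 ± 0.0684 CPM), and the log2 fold change was -1.97 (SE 0.24), 25.5% of control. In shAC007128.1 IL1RL1 rested on 32, 24 and 31 counts. It shares 95 exonic bases with IL18R1 on the same strand, and it is the member with the seed match to the hairpin given above.

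IL1R1 (ENSG00000115594, chromosome 2, 102064544 to 102179874), the signalling receptor for IL1A and IL1B, had 38, 61 and 41 counts in shCtrl and 37, 70 and 76 in shAC007128.1. In CPM this was 0.627 ± 0.121 and 1.08 ± 0.366, groups that overlapped, with a log2 fold change of 0.78 (SE 0.36). Leaving out shAC007128.1 replicate 1 gave 1.04 and met the limits for a call, which held in only 1 of 14 alternative fits. Leaving out shAC007128.1 replicate 3 gave 0.61. IL1R2 (ENSG00000115590, chromosome 2, 101991960 to 102028544), the decoy receptor, measured 0.902, 0.709 and 0.899 CPM in shCtrl and 1.25, 1.49 and 0.912 CPM in shAC007128.1. The lowest shAC007128.1 sample was barely above the highest shCtrl sample, and the log2 fold change was 0.54 (SE 0.28). Per length, IL1R2 was 3.34 ± 0.989 times IL1R1 in shCtrl and 3.02 ± 1.45 times in shAC007128.1, so the balance of decoy to signalling receptor transcripts overlapped between groups. IL1RAP made up 93.3% of the summed level of the 4 receptor genes in shCtrl and 94.1% in shAC007128.1, and that sum was 10.8 ± 0.22 and 11.1 ± 1.17 CPM per kb.

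Members were also ranked by level per length over merged exons, an order that can change with the length used. In shCtrl cells it ran from IL1A (146 CPM per kb) through IL1B (69.3), IL18 (30.6) and IL1RAP (10.1) to 6 members under 1 CPM per kb. Below IL1RN (0.858), the ranges of IL1RL1 and IL36G, of IL36G and IL1R2, and of IL33 and IL1R1 overlapped. In shAC007128.1 cells IL18 came first (32.5), ahead of IL1A (19.8), IL1B (11.3) and IL1RAP (10.4), with the ranges of IL1B and IL1RAP overlapping. IL1RN and IL1R2, IL36G and IL1R1, and IL1R1 and IL1RL1 also overlapped with their neighbours there, and IL33 was last at 0.00746.

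All 10 members passed the filter on low counts, IL33 only through its shCtrl samples. Of the 10 members, 4 (IL1A, IL1B, IL33 and IL1RL1) met the limits for a lower call, against 10.1% of all genes tested, and 0 for a higher call, against 5.57%. The IL33 call was lost in 7 of the 12 alternative fits that could test it. By edgeR 0 members had a higher value at an unadjusted p under 0.05, and DESeq2 and limma-voom called 0 higher as well as 4 lower each. In 4 members every shAC007128.1 sample was below every shCtrl sample, which held for 28.2% of genes tested, and in 1 member, IL1R2, every one was above, which held for 27.0%. The median log2 fold change was -0.78 over the members and -0.02 over all genes tested. As the members were selected on this same contrast, nothing is read from these counts.

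**Figure D3:**
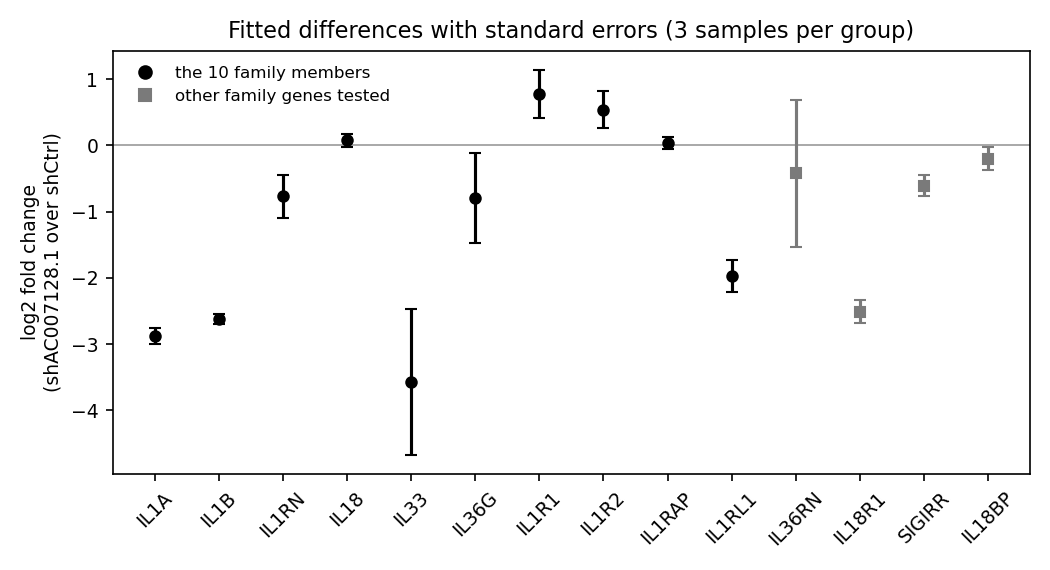
Log2 fold change (shAC007128.1 over shCtrl) of the 10 members (black circles) and the 4 other tested family genes (grey squares) from the edgeR fit, with standard errors as bars. IL33, IL1A, IL1B, IL1RL1 and IL18R1 lie near or below -2, IL18 and IL1RAP lie at 0.08 and 0.04, and the bars of IL33 and IL36RN are the widest.

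Of 12 further family genes, 4 had enough counts to test, and 1 fell, where 10.1% of all genes tested were called lower. IL18R1, the ligand-binding chain of the IL18 receptor, had 595, 528 and 531 counts in shCtrl and 79, 69 and 75 in shAC007128.1. It fell from 7.51 ± 0.831 to 1.32 ± 0.0782 CPM (log2 fold change -2.51, SE 0.17, edgeR adjusted p = 7.15e-05), while its partner chain IL18RAP had 0 or 1 count in every sample. SIGIRR, an inhibitory receptor of the family, was 31.2 ± 2.92 and 20.5 ± 4.22 CPM, with a log2 difference of -0.61 (SE 0.16, adjusted p = 0.0225) that is under the fold limit. IL18BP, the secreted inhibitor of IL18, was 30.9 ± 6.86 and 26.9 ± 2.1 CPM (log2 difference -0.20, SE 0.17, adjusted p = 0.395), and it shares 1031 exonic bases with NUMA1 on the opposite strand. Per length, IL18BP over IL18 was 0.174 ± 0.0427 in shCtrl and 0.144 ± 0.0245 in shAC007128.1. IL1RL2, the receptor for IL36G, had no counts in any sample, as did IL36B and IL1RAPL2. IL36RN, the IL-36 antagonist, was tested but too scarce to resolve (log2 difference -0.42, SE 1.11, adjusted p = 0.790). By edgeR 0 of the tested genes were higher at an unadjusted p under 0.05, and DESeq2 and limma-voom called 0 higher. This list and those of processing, signalling and response genes below were chosen with earlier results of these data known. Nothing is therefore read from how many of their genes were called.

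Genes that process IL-1 family precursors or let them out of the cell were listed next, 27 in all with 20 tested. Of these, 4 met the limits for a lower call and 1 for a higher call. Among all genes tested the shares were 10.1% and 5.57%. CASP1, the protease that cleaves IL1B and IL18, fell from 10.9 ± 1.86 to 3.63 ± 0.144 CPM (log2 fold change -1.59, SE 0.17, adjusted p = 0.000419). NINJ1, which ruptures the plasma membrane in lytic death, fell from 47.7 ± 1.18 to 15.5 ± 5.44 CPM (-1.62, SE 0.23, adjusted p = 0.00131). CARD16, a caspase-1 inhibitor at a low level, had 55, 32 and 55 counts in shCtrl and 6, 18 and 8 in shAC007128.1. The limit of the filter on low counts was reached in 3 shCtrl samples but in only 1 shAC007128.1 sample. CARD16 was thus tested through its shCtrl samples, and its fitted value of -1.77 (SE 0.56) rests on few counts in shAC007128.1. CTSS, a lysosomal protease, had 27, 61 and 29 counts in shCtrl and 0, 0 and 5 in shAC007128.1. It passed the filter on low counts only through its shCtrl samples, so its fitted value of -4.06 (SE 1.06) rests on counts at or near 0. S100A13, a carrier in the non-classical export of IL1A, rose from 14.9 ± 2.22 to 37.8 ± 10.0 CPM (1.34, SE 0.21, adjusted p = 0.00230), with exonic bases shared with S100A1 and a noncoding gene. PYCARD, the inflammasome adaptor ASC, had 0, 5 and 0 counts in shCtrl and 2, 5 and 0 in shAC007128.1. CASP8, which can also cleave IL1B, was 31.4 ± 0.149 and 21.4 ± 1.28 CPM (-0.55, SE 0.09, adjusted p = 0.00260), under the fold limit. The list's median was -0.34 against -0.02 for all genes, and 3 of its 5 calls were left without shCtrl replicate 3.

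The signalling chain behind the receptors, 28 genes with 27 tested, gave 2 higher calls, where 5.57% of all genes tested were called higher. MAP2K4 and MAP2K6 are kinases that activate JNK and p38. MAP2K4 rose from 39.7 ± 5.03 to 91.5 ± 15.4 CPM (1.20, SE 0.15, adjusted p = 0.000706) and MAP2K6 from 2.07 ± 0.516 to 7.12 ± 3.44 CPM (1.78, SE 0.40, adjusted p = 0.0104). No gene of the list was called lower by edgeR, DESeq2 or limma-voom (0 by each), and 5 were lower at an unadjusted p under 0.05. Without the fold limit, 3 were lower and 10 higher at an edgeR adjusted p of 0.05 or less. MAP2K3, named here after its values were seen, went the other way from MAP2K4 and MAP2K6. MAP2K3 was 98.0 ± 5.17 and 57.5 ± 4.95 CPM (-0.77, SE 0.09, adjusted p = 0.000643), under the fold limit. The receptor-proximal adaptors did not pass the limits. MYD88 varied within groups, with 2872, 929 and 825 counts in shCtrl and 2230, 969 and 1010 in shAC007128.1 (0.25, SE 0.54, adjusted p = 0.750). IRAK1 was 147 ± 1.88 and 169 ± 15.6 CPM (0.20, SE 0.08, adjusted p = 0.0907), and IRAK4 overlapped between groups (-0.31, SE 0.26, adjusted p = 0.395). TRAF6, the ubiquitin ligase downstream of the IRAKs, was 38.8 ± 0.102 and 56.9 ± 6.25 CPM (0.55, SE 0.10, adjusted p = 0.00387), under the fold limit. The list's median was 0.25.

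Genes known to respond to IL-1 in epithelia, 36 listed and 26 tested, were mixed, with 5 that fell and 1 that rose. Among all genes tested 10.1% were called lower and 5.57% higher. LCN2, an iron-binding defence protein, fell from 49.7 ± 1.74 to 5.67 ± 0.226 CPM (-3.13, SE 0.09, adjusted p = 1.02e-05). IL6 fell from 28.7 ± 0.821 to 4.62 ± 0.238 CPM (-2.64, SE 0.11, adjusted p = 1.6e-05) and the neutrophil chemokine CXCL2 from 33.6 ± 1.87 to 5.08 ± 1.20 CPM (-2.73, SE 0.18, adjusted p = 6.45e-05). The acute-phase genes SAA1 and SAA2, which are near-identical and may share reads, fell by 1.70 (SE 0.35, adjusted p = 0.00737) and 1.44 (SE 0.24, adjusted p = 0.00304) on the log2 scale. MMP1, a collagenase, rose from 0.943 ± 0.177 to 2.18 ± 0.285 CPM (1.21, SE 0.24, adjusted p = 0.00649). NFKBIA, the NF-kappaB inhibitor that NF-kappaB itself induces, was 27.5 ± 2.90 and 36.6 ± 5.78 CPM (0.41, SE 0.14, adjusted p = 0.0512). CXCL8, named here after its values were seen because it is a textbook IL-1 target, went the other way from CXCL2 with a log2 difference of 0.70 (SE 0.15, adjusted p = 0.00867), under the fold limit. The list's median was -0.30, and whether its members respond to IL-1 in KYSE150 cells was not tested. As the list was chosen with earlier results of these data known, its calls are a description.

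**Figure D4:**
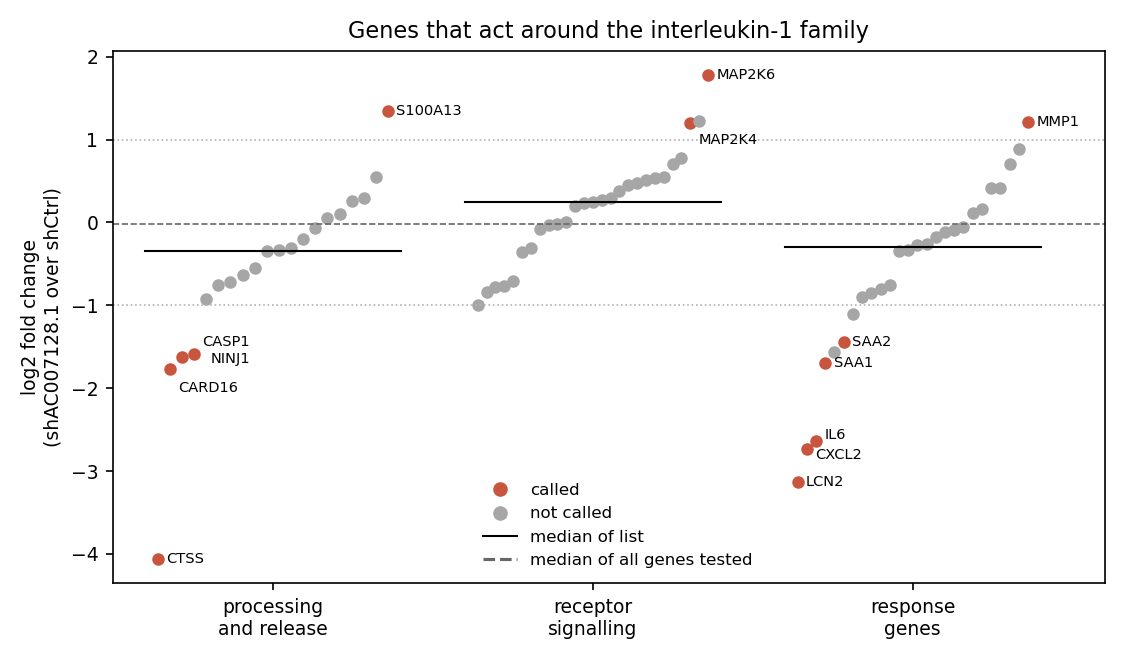
Log2 fold change of each tested gene in the 3 lists of processing and release, receptor signalling and response genes, with called genes in red and named, list medians as solid lines, log2 values of 1 and -1 as dotted lines and the median of all genes tested as a dashed line. LCN2, CXCL2, IL6 and CTSS lie lowest, MAP2K6 lies highest, and most genes of the 3 lists sit between -1 and 1.

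Most members lie in 2 clusters on chromosome 2. The ligand cluster of 9 genes spans 360 kb (112773925 to 113134016) and the receptor cluster of 6 genes spans 461 kb (101991960 to 102452565). Within the ligand cluster IL1A and IL1B, which are adjacent, had values of -2.88 and -2.62. Further along the cluster, IL36G, IL36RN and IL1RN had -0.80, -0.42 and -0.77. Within the receptor cluster IL1RL1 and IL18R1, which overlap, had -1.97 and -2.51, while IL1R2 and IL1R1 had 0.54 and 0.78. Protein-coding neighbours within 500 kb were then examined, to see whether the members' surroundings moved with them. For scale, 10.1% of all genes tested were called lower and 5.57% higher. Next to the ligand cluster 11 neighbours were tested and 1 was called, CKAP2L, a mitotic spindle gene that rose by 1.32 (SE 0.10, adjusted p = 0.000115). By edgeR 0 neighbours of the ligand cluster were called lower, 3 were lower at an unadjusted p under 0.05, and DESeq2 called 1 and limma-voom 0. Of the 4 tested neighbours of the receptor cluster edgeR called 0, and 0 reached an unadjusted p under 0.05 in either direction. The median log2 fold change was 0.15 over the neighbours of the ligand cluster and -0.16 over those of the receptor cluster.

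**Figure D5:**
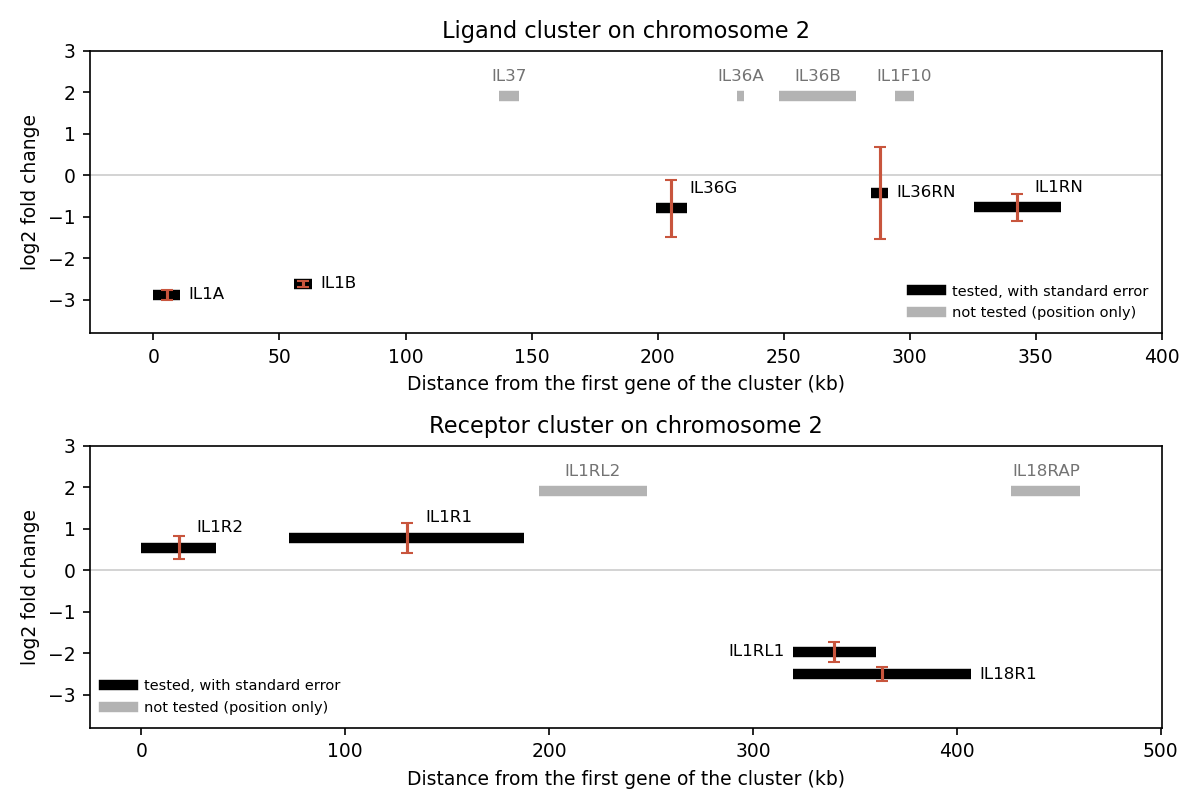
Position (kb from the first gene) and log2 fold change (shAC007128.1 over shCtrl) of the genes in the ligand cluster and the receptor cluster on chromosome 2, with gene length as the bar, standard errors in red, and untested genes in grey for position only. IL1A and IL1B at one end of the ligand cluster, and IL1RL1 and IL18R1 in the receptor cluster, lie near or below -2, apart from the other tested genes of each cluster.

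Around the members on other chromosomes, 16 neighbours of IL18 were tested, with 1 lower and 3 higher, against 10.1% and 5.57% of all genes tested. NKAPD1 fell by 1.03 on the log2 scale (adjusted p = 0.000147), while SIK2, a salt-inducible kinase, rose by 1.10 (adjusted p = 6.45e-05). The small heat shock gene CRYAB rose by 2.75 (adjusted p = 0.00132) and BCO2, a carotenoid-cleaving enzyme gene, by 1.98 (adjusted p = 0.000426), whereas IL18 among them had a value of 0.08. Near IL33, 8 neighbours were tested and GLDC, the glycine decarboxylase, rose by 1.19 (adjusted p = 0.0193). Near IL1RAP, 3 were tested and CLDN1, a tight junction gene, met the limits for a lower call with 73, 42 and 39 counts in shCtrl and 0, 0 and 8 in shAC007128.1. CLDN1 passed the filter on low counts only through its shCtrl samples, so its fitted value of -3.85 (SE 1.08) also rests on counts at or near 0.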

How the data were processed

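RNA from 6 KYSE150 samples was sequenced as paired-end poly-A libraries. Per the study's methods, the authors aligned cleaned reads with TopHat to hg38. The submitters' processing notes name TopHat2 2.0.6 and CASAVA 1.8, and list mm10 beside GRCh38. The table the authors deposited gives an estimated count for each Ensembl gene, without normalisation. Its values are whole, and a count of 4 (1238 to 1380 genes per sample) was more common than 3 (675 to 815) or 5 (872 to 993). The counting program, annotation and use of strand are not given in the sources used here. Symbols and positions came from GENCODE on hg38, which matched 60357 of 67140 identifiers.

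Counts were filtered (filterByExpr, minimum count 10), scaled by TMM and compared by the quasi-likelihood test of edgeR 4.0.16 (R 4.3.3) with Benjamini-Hochberg adjustment over 19254 genes, which replaced the Cuffdiff test of the study because the table holds counts. As in the study, calls were limited to genes whose adjusted p reached 0.05 and whose level differed by 1 or more on the log2 scale. The SE given with each edgeR value is approximate: the absolute log2 fold change divided by the square root of the F statistic of its test. The edgeR step was tested on simulated data. CPM uses TMM-scaled library sizes, and level per length divides it by merged exon length. The depth makes 3 counts equal to 0.0373 to 0.0546 CPM. Replicates within a group differed by more than sampling noise in every pair.

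The members and the gene lists were chosen with earlier results of these data known. Named genes were all members, up to 4 called genes of each list in each direction by smallest p, fixed core genes of the pathway whatever their values, and called neighbours. CXCL8, SAA1 and MAP2K3 were added after their values were seen. Alternatives were DESeq2 1.42.0, limma-voom (limma 3.58.1), other scalings, other filters, counts divided by 4, a replicate block, no fold limit, and leaving out each sample.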

Additional observations from a re-analysis of the deposited data

How the results depend on the processing

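Over 14 alternative fits, the log2 fold change ran from -3.02 to -2.80 for IL1A, from -2.69 to -2.58 for IL1B and from -2.06 to -1.86 for IL1RL1, values given as a description because the members were selected on this contrast. IL33 (-7.36 to -3.02) did not meet the limits for a call in 7 of the 12 that could test it: with no filter (-3.61), with the replicate block (-4.04), without each shCtrl replicate (-3.73, -3.32 and -3.62) and without shAC007128.1 replicate 1 or 3 (-3.02 each). The other member values ran from -1.15 to -0.55 for IL1RN, from -1.28 to -0.37 for IL36G, from 0.61 to 1.04 for IL1R1 and from 0.37 to 0.70 for IL1R2, and IL18 and IL1RAP crossed 0. The median over all genes was -0.02 with TMM and -0.10 with library size only.

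Dropping the fold limit gave 4041 genes higher and 3820 lower in all, and 2 of the other family genes, 13 processing and release genes, 13 signalling genes, 11 response genes and 22 neighbours. Processing and release genes called fell from 5 to 3 where each sample had to hold 10 counts or more, and also to 3 with counts divided by 4. Leaving out 1 sample at a time gave 970 to 1068 genes called higher and 1586 to 2023 lower, 3 to 5 members lower, 0 to 1 member higher (IL1R1, without shAC007128.1 replicate 1), 3 to 5 processing genes (3 without shCtrl replicate 3), 2 to 3 signalling genes, 6 to 7 response genes and 5 to 10 neighbours. The cause of these changes was not tested.

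Replicate numbers did not pair the samples, as the deviations of same-numbered samples correlated at 0.0306, -0.0254 and -0.0299. A replicate block gave 977 genes higher and 1692 lower, with 3 members lower and 0 higher. AC007128.1, IL33, IL36G, IL1R1 and IL1R2 rest on under 100 counts per sample, which limits what can be resolved for them. In shAC007128.1 the counts were also low for IL1RL1 (32, 24 and 31) and IL1RN (70, 151 and 95).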
